A study of Mus musculus with 23 samples.

Results

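The receptors for glutamate and the scaffold and kinase genes of the postsynaptic density were examined in the brains of adult mice. Their recipient mothers had received different diets around implantation and gestation. The set was chosen by name, as 36 genes in 9 classes: 4 AMPA, 5 kainate and 7 NMDA receptor subunits, 1 delta receptor, 7 metabotropic receptors, 4 membrane-associated guanylate kinases, 3 Shank and 3 Homer scaffolds, and 2 subunits of calcium/calmodulin-dependent kinase II (CaMKII). All 36 genes were found on the array, with 60 probes of the 39429 that are not controls, and 19 of the genes had more than 1 probe.

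The samples were whole brains, with cerebrum and cerebellum, of male C57BL/6J mice at 19 weeks of age, with 1 one-color array per mouse and 4 mice per group. The embryos came from in vitro fertilization and were carried by ICR recipient mothers, which received 1 of 3 diets from 1 month before embryo transfer until delivery: the control diet (CD, by weight 20% casein and 0.02% folic acid), the protein-restricted diet (PR, 5% casein and 0.02% folic acid) or the folic acid-supplemented PR diet (FA, 5% casein and 0.1% folic acid). All pups were delivered by caesarian section, nursed by ICR foster mothers and fed CD after weaning, and the mice had been through a series of behavioral tests. The study states the diet of the foster mothers in conflicting ways, as CD in its methods and as PR, FA or CD in its results. Since FA is also low in protein, FA minus CD differs by both nutrients, and FA minus PR by folic acid.

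Glutamate released from excitatory terminals opens AMPA and kainate receptors, the fast cation channels of the synapse, and NMDA receptors, which admit calcium when the membrane is depolarized at the same time. Metabotropic glutamate receptors act through G proteins and tune transmitter release or neuronal excitability. Behind the membrane, the guanylate kinase PSD-95 (encoded by Dlg4) holds the receptors, Shank and Homer proteins link them to deeper layers and to internal calcium stores, and CaMKII translates calcium entry into lasting changes of synaptic strength. These genes are expressed mainly in neurons, but their levels differ strongly among brain regions.

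Values are log2 intensities of the normalized table that was deposited, in which 1 unit is a 2-fold difference in brightness. Differences are between group means of 4 mice, given with the standard error (SE) of a limma fit over all 39429 probes, and a probe was called when its p-value, Benjamini-Hochberg adjusted across the whole array, was under 0.05. Of the 60 probes, 58 were well above background on all 12 arrays. The probe of Grm6, the receptor of retinal bipolar cells, was well above background on 0 of 12 arrays and is not discussed as a level, and 1 of the probes of Grik3 passed on 10 of 12. The median spread within groups (residual standard deviation, SD) was 0.128 for the 58 bright member probes and 0.103 for the 23753 probes well above background on all arrays. The arrays of each diet lay on a slide of their own and were scanned apart from the others, so the effects of diet and of slide cannot be told apart. The arrays differed in detection as well: 27068 to 28458 of 43020 spots were well above background on the CD arrays, 31266 to 33478 on the PR arrays and 30408 to 31672 on the FA arrays. Before normalization, the median signal was 121.7 to 152.8 on the CD arrays, 174.2 to 206.0 on the PR arrays and 151.8 to 178.1 on the FA arrays. The signal of the negative controls was 28.1 to 34.8, 42.7 to 51.2 and 39.3 to 47.6, in the same order. In homogenized brain, fewer cells of a type and less RNA per cell cannot be told apart.

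In PR brains, 18 of the 60 member probes were lower than in CD and 5 were higher, where 16.6% of all probes were called lower and 13.4% higher. In FA brains, 22 probes were lower than in CD and 6 were higher, where 18.0% of all probes were called lower and 16.4% higher. Between FA and PR, 1 member probe was lower and 0 were higher, where 0.386% of all probes were called lower and 0.228% higher. The Tukey test of the methods called 0 member probes in either direction, where 2 of all 39429 probes were lower and 6 higher. An unadjusted limma p was under 0.05 for 11 of the 60 member probes and for 5572 of all 39429 probes. The median log2 difference of the member probes was -0.144 for PR minus CD and -0.154 for FA minus CD, while that of all probes was -0.016 and -0.006. Genes with several probes weigh more in these values. The counts by class given below are to be read against the same shares of all probes. With only the leading probe of each gene (well above background on most arrays, then the brightest), 8 of 36 probes were lower and 4 higher in PR, and 11 and 5 in FA, with medians of -0.035 and -0.065. Both comparisons use the same 4 CD arrays. The background shares depended on the processing, and with the normexp background correction 3607 of all 39429 probes were lower and 4746 higher in PR, and 4861 and 6332 in FA. The members then gave 13 lower and 4 higher in PR and 21 and 6 in FA. By gene, 14 members had at least 1 lower probe and 5 at least 1 higher probe in PR, 17 and 6 in FA, and 0 had probes called in both directions in 1 comparison. The matching shares of all genes were not computed, so these gene counts have no background beside them. The members had 60 probes for 36 genes, and the array 39429 probes for 31829 gene names. The 11 members without a called probe against CD were Grik4, Grik5, Grin1, Grin2d, Grid1, Grm2, Grm6, Grm7, Dlg1, Dlg2 and Dlg3.

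The differences ran from -0.88 to 0.47 in PR and from -0.91 to 0.48 in FA. At the limits of the methods (2-fold and an adjusted p under 0.0001) 0 of 60 member probes passed in any comparison. These limits were applied here to the limma p-values, while the study applied them to Tukey's test, so the counts are not those of the study. At these limits 0.0862% of all probes passed in PR minus CD, 0.195% in FA minus CD and 0.0% in FA minus PR. The values of the PR and CD mice did not overlap for 22 member probes (against 33.2% of all probes), those of FA and CD for 29 (against 36.9%), and those of FA and PR for 5 (against 11.1%). These 5 were Grin2b at base 5615 and both probes of Grin3a, lower in FA, and Grik1 and Grm8, higher in FA. The count of lower probes in PR depended on single arrays: it was 8 without CD replicate 1, 7 without CD replicate 2, 9 without CD replicate 3, 9 without PR replicate 1, 6 without PR replicate 3 and 7 without PR replicate 4. Of all probes, 13.4% to 17.1% were still lower when 1 array was left out. The 5 higher probes became 3 without CD replicate 1, CD replicate 2 or PR replicate 4. The 22 lower probes in FA ranged from 17 to 23 when 1 array was left out.

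**Figure D1:**
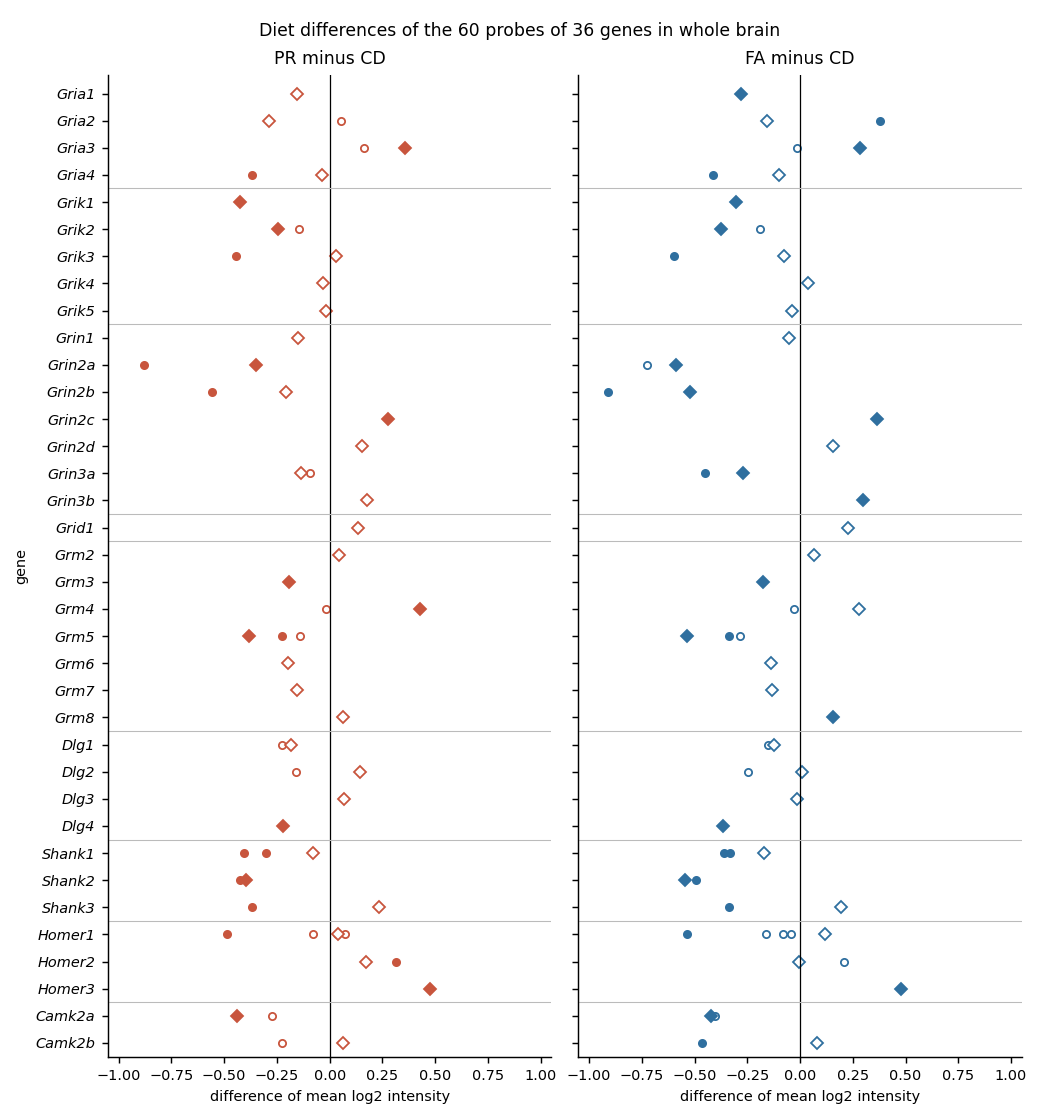
Difference of the mean log2 intensity from CD (horizontal axis) for every probe of the 36 genes (vertical axis, grouped by class), for PR on the left and FA on the right. Diamonds mark the leading probe of a gene and circles its other probes, and filled symbols had an adjusted p under 0.05. Filled symbols lie mostly left of 0, while Gria3, Grin2c and Homer3 lie right of 0 in both panels.

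NMDA receptors are built of the obligatory subunit GluN1 (Grin1), GluN2 subunits (Grin2a to Grin2d) that set the kinetics of the channel, and the GluN3 subunits (Grin3a and Grin3b), which lower its calcium permeability. At least 1 probe each of Grin2a and Grin2b, the main forebrain GluN2 subunits, was lower in both groups, the Grin3a probes were lower in FA, and the probe of the cerebellar Grin2c was higher in both. Of these, the PR calls of Grin2a and Grin2c depended on single arrays, as given with their values. Of the 10 probes, 3 were lower and 1 was higher in PR, and 5 were lower and 2 were higher in FA. Grin1 read 7.70, 8.48, 8.001 and 8.12 in the CD brains, 8.05, 7.89, 7.82 and 7.93 in the PR brains and 7.94, 8.18, 7.89 and 8.07 in the FA brains. These values overlapped among all groups, and the differences from CD were -0.15 ± 0.14 (SE, adjusted p = 0.442) in PR and -0.05 ± 0.14 (SE, adjusted p = 0.796) in FA. The single Grin1 probe varied among the CD mice (SD 0.32).

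The leading probe of Grin2a, the GluN2A subunit of mature forebrain synapses, starting at base 4452 of its transcript, read 10.12, 10.21, 10.15 and 10.09 in the CD brains, 9.64, 9.87, 9.79 and 9.86 in the PR brains and 9.54, 9.67, 9.23 and 9.78 in the FA brains. All CD values lay above all PR and all FA values. Grin2a fell by 0.35 ± 0.11 in PR (SE, adjusted p = 0.0293) and by 0.59 ± 0.11 in FA (adjusted p = 0.00183), that is 1.27-fold and 1.5-fold lower. Its probe at base 2917 read 7.27, 7.73, 7.42 and 8.90 on the CD arrays, 6.95, 6.89, 6.999 and 6.97 on the PR arrays and 7.33, 7.24, 6.75 and 7.12 on the FA arrays. The CD mice spread widely at this probe, with the highest at 8.90, while all PR values lay below them and FA and CD overlapped. The differences were -0.88 ± 0.30 (SE, adjusted p = 0.047) in PR and -0.72 ± 0.30 (SE, adjusted p = 0.0849) in FA. The PR call at base 4452 was lost without CD replicate 1, 2 or 3 or PR replicate 1 or 3 (adjusted p from 0.0535 to 0.0773) and under the Tukey test, and that at base 2917 without CD replicate 2 or PR replicate 1, 2, 3 or 4 (adjusted p from 0.0759 to 0.0882) and under 75th percentile scaling, the fit of only the groups compared and the Tukey test.

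Grin2b, the GluN2B subunit that dominates in the young forebrain and persists in the adult cortex and hippocampus, gave the largest difference between FA and CD in the set. At base 5615 it read 10.22, 10.43, 10.11 and 9.96 in the CD brains, 9.56, 9.55, 9.71 and 9.67 in the PR brains and 9.42, 9.39, 8.85 and 9.40 in the FA brains. The 3 groups did not overlap here, with CD highest and FA lowest. The differences from CD were -0.56 ± 0.14 (SE, adjusted p = 0.0114) in PR and -0.91 ± 0.14 (SE, adjusted p = 0.000636) in FA, the latter a 1.88-fold lower level. At the leading probe, base 7202, the values were 11.63, 11.74, 11.62 and 11.41 on the CD arrays, 11.59, 11.29, 11.23 and 11.45 on the PR arrays and 11.03, 11.23, 10.79 and 11.25 on the FA arrays. The FA values lay below all CD values, while PR and CD overlapped. Here the difference was -0.21 ± 0.12 (SE, adjusted p = 0.209) in PR and -0.52 ± 0.12 (SE, adjusted p = 0.00631) in FA. The difference between FA and PR was -0.36 ± 0.14 (SE, adjusted p = 0.267) at base 5615 and -0.32 ± 0.12 (SE, adjusted p = 0.26) at base 7202. Both FA calls and the PR call at base 5615 were kept under each of the alternatives tried.

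Grin2c, the GluN2C subunit of cerebellar granule cells, was 12.93, 12.94, 12.85 and 12.73 in the CD brains, 13.05, 13.11, 13.14 and 13.24 in the PR brains and 13.34, 13.34, 12.95 and 13.27 in the FA brains. Every PR and every FA value was above every CD value. It rose by 0.28 ± 0.09 in PR (SE, adjusted p = 0.0418) and by 0.36 ± 0.09 in FA (adjusted p = 0.0106). The PR call was lost without any 1 of the 8 arrays (adjusted p from 0.0501 to 0.108) and under 75th percentile scaling, the normexp background correction and the Tukey test. Grin3b, a subunit best known from motor neurons, differed by 0.18 ± 0.10 (SE, adjusted p = 0.22) in PR and 0.30 ± 0.10 (SE, adjusted p = 0.0428) in FA. The FA call was lost without CD replicate 1, 2, 3 or 4 or FA replicate 1, 3 or 4 (adjusted p from 0.0607 to 0.112) and under the Tukey test. Grin2d, found mainly in the brainstem, midbrain and interneurons, was not called.

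Grin3a, the GluN3A subunit that acts as a brake on synapse maturation, held the single probe that differed between FA and PR. This probe covers the last codons of the coding sequence, at chr4:49678098-49678157 of mm9 on the minus strand. Its sequence is shown because it carries the only member call between the diets low in protein. The capitals mark the stop codon at its 3′ end.
Grin3a, base 3288: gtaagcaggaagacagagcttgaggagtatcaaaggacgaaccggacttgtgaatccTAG

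At this probe Grin3a read 8.22, 8.25, 8.08 and 8.17 in the CD brains, 8.17, 8.08, 8.06 and 8.04 in the PR brains and 7.67, 7.71, 7.78 and 7.77 in the FA brains. The FA values were lower than all PR and all CD values, while PR and CD overlapped. FA minus PR was -0.35 ± 0.05 (SE, adjusted p = 0.0241), FA minus CD -0.45 ± 0.05 (SE, adjusted p = 0.000142) and PR minus CD -0.09 ± 0.05 (SE, adjusted p = 0.183). The call against PR was lost without PR replicate 1 or 2 or FA replicate 2, 3 or 4 (adjusted p from 0.0524 to 0.0641) and under the Tukey test. The leading probe, listed for an Ensembl transcript and starting at its base 7166, read 11.14, 11.21, 11.22 and 11.18 on the CD arrays, 11.06, 11.04, 11.05 and 11.05 on the PR arrays and 10.96, 10.78, 10.96 and 10.97 on the FA arrays. There the 3 groups did not overlap, in the order CD, PR, FA from high to low. The differences were -0.14 ± 0.05 (SE, adjusted p = 0.0556) for PR minus CD, -0.27 ± 0.05 (SE, adjusted p = 0.00185) for FA minus CD and -0.13 ± 0.05 (SE, adjusted p = 0.246) for FA minus PR.

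**Figure D2:**
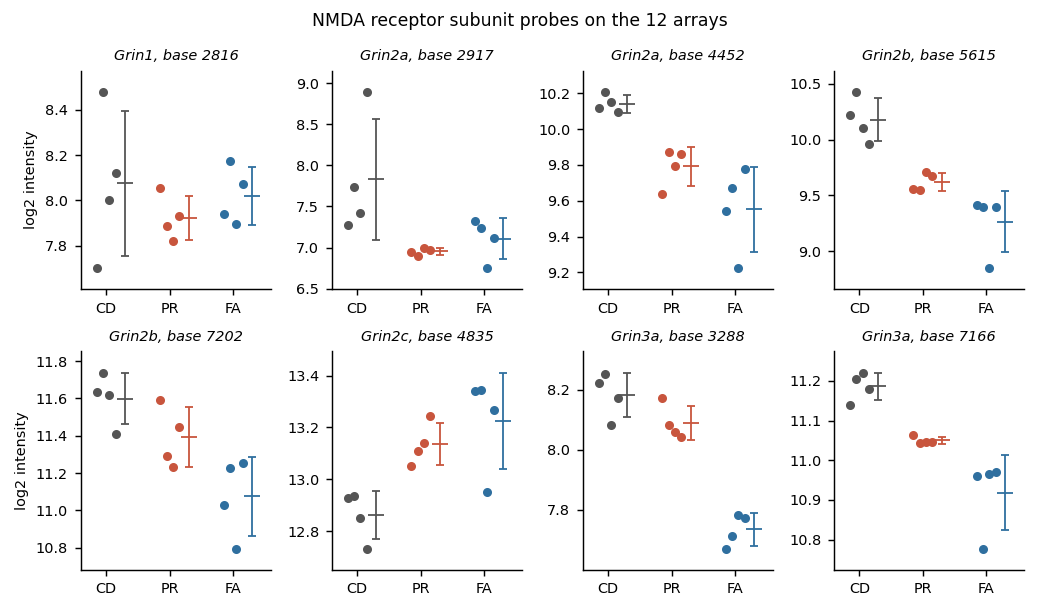
Log2 intensity (vertical axis) of 8 NMDA receptor subunit probes in the 4 CD, 4 PR and 4 FA brains. Points are single mice, the bar beside them is the mean ± SD, and the title of each panel gives the first base of the probe in its transcript. Grin2b at base 5615 and Grin3a at base 7166 descend from CD over PR to FA without overlap, Grin2c is higher in PR and FA than in CD, and Grin1 overlaps.

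AMPA receptors are tetramers of GluA1 to GluA4 (Gria1 to Gria4), and GluA2 makes the channel impermeable to calcium. Of the 7 AMPA probes, 1 was lower and 1 higher in PR, and 2 were lower and 2 higher in FA, so that this class moved in both directions. Gria1, the GluA1 subunit that is inserted during potentiation, read 12.62, 12.60, 12.52 and 12.59 in the CD brains, 12.34, 12.49, 12.41 and 12.46 in the PR brains and 12.27, 12.41, 12.19 and 12.33 in the FA brains. All PR and FA values lay below all CD values. The difference was -0.16 ± 0.06 (SE, adjusted p = 0.0562) in PR, just outside the call, and -0.28 ± 0.06 (SE, adjusted p = 0.00316) in FA. Gria2 at its leading probe, base 6781 of transcript variant 3, read 9.72, 9.62, 9.53 and 10.02 on the CD arrays, 9.53, 9.47, 9.35 and 9.39 on the PR arrays and 9.33, 9.71, 9.22 and 10.01 on the FA arrays. The groups overlapped, and the differences were -0.29 ± 0.16 (SE, adjusted p = 0.216) and -0.15 ± 0.16 (SE, adjusted p = 0.503) in PR and FA. At the other Gria2 probe, base 3120 of transcript variant 1, the values were 9.28, 9.29, 9.39 and 9.27 in the CD brains, 9.41, 9.60, 9.18 and 9.25 in the PR brains and 9.58, 9.67, 9.68 and 9.82 in the FA brains. The FA values stood clear of CD here, while PR and CD overlapped, with a difference of 0.38 ± 0.09 (SE, adjusted p = 0.0075) in FA and 0.06 ± 0.09 (SE, adjusted p = 0.67) in PR.

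Gria3, the X-linked GluA3 subunit, was the AMPA subunit that rose at its leading probe, base 4512, with 11.56, 11.38, 11.63 and 11.60 in the CD brains, 11.91, 11.87, 11.90 and 11.94 in the PR brains and 11.86, 11.83, 11.69 and 11.92 in the FA brains. All PR and FA values exceeded all CD values. The rise was 0.36 ± 0.06 (SE, adjusted p = 0.00222) in PR and 0.28 ± 0.06 (SE, adjusted p = 0.0065) in FA, or 1.28-fold and 1.22-fold, and was called under each of the alternatives tried. Its upstream probe, base 2503, differed by 0.16 ± 0.12 (SE, adjusted p = 0.336) in PR and -0.02 ± 0.12 (SE, adjusted p = 0.937) in FA. Gria4, the GluA4 subunit of cerebellar glia and fast interneurons, fell at base 1566, by 0.37 in PR (adjusted p = 0.0247) and 0.41 in FA (adjusted p = 0.0127). Its leading probe at base 5384 differed by -0.04 ± 0.05 (SE, adjusted p = 0.594) and -0.10 ± 0.05 (SE, adjusted p = 0.156). The PR call of Gria4 was lost without CD replicate 1 or 2 or PR replicate 2, 3 or 4 (adjusted p from 0.0578 to 0.0639) and under the Tukey test.

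Kainate receptors combine the low-affinity subunits GluK1 to GluK3 (Grik1 to Grik3) with the high-affinity subunits GluK4 and GluK5 (Grik4 and Grik5). Each of the low-affinity subunits fell at 1 probe, the other probes of Grik2 and Grik3 were not called, and the high-affinity subunits did not pass the test. Of the 7 probes, 3 were lower and 0 higher in both PR and FA. Grik1, which is found in interneurons and sensory neurons, read 9.55, 9.46, 9.43 and 9.84 in the CD brains, 9.09, 9.19, 9.11 and 9.20 in the PR brains and 9.26, 9.28, 9.25 and 9.29 in the FA brains. All PR and FA values lay below all CD values. It differed by -0.42 ± 0.08 (SE, adjusted p = 0.00315) in PR and -0.30 ± 0.08 (SE, adjusted p = 0.0149) in FA. Grik2, the most widespread kainate subunit, read 6.99, 6.88, 6.84 and 6.88 on the CD arrays, 6.69, 6.58, 6.69 and 6.66 on the PR arrays and 6.38, 6.53, 6.61 and 6.58 on the FA arrays at its leading probe, base 4815. Again the CD values were above all others, and the differences were -0.24 ± 0.06 (SE, adjusted p = 0.00922) in PR and -0.38 ± 0.06 (SE, adjusted p = 0.000735) in FA. The other Grik2 probe, base 1258, differed by -0.15 ± 0.15 (SE, adjusted p = 0.485) in PR and -0.19 ± 0.15 (SE, adjusted p = 0.347) in FA. The PR call of Grik2 was lost under 75th percentile scaling, and no call of Grik1 was lost under any alternative. Grik3 fell at base 2957, by 0.45 in PR and 0.60 in FA (adjusted p = 0.0372 and 0.00827), where it was well above background on 2 CD, 4 PR and 4 FA arrays. Its leading probe at base 8741 differed by 0.03 ± 0.05 (SE, adjusted p = 0.675) and -0.08 ± 0.05 (SE, adjusted p = 0.262). The PR call of Grik3 was lost without CD replicate 1, 2 or 3 or PR replicate 1 or 4 (adjusted p from 0.0513 to 0.0957) and under 75th percentile scaling, the normexp background correction, the fit of only the groups compared, the variance model with trend and the Tukey test. Grik4 and Grik5 lay between -0.04 and 0.04 in both comparisons.

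The metabotropic receptors fall into group I (here Grm5), which activates phospholipase C behind the synapse, and groups II (Grm2 and Grm3) and III (Grm4, Grm6, Grm7 and Grm8), which inhibit adenylate cyclase, mostly on terminals. Of their 10 probes, 3 were lower and 1 higher in PR, and likewise 3 and 1 in FA. Grm5, the receptor mGluR5 of forebrain neurons, read 14.08, 14.09, 14.05 and 14.06 in the CD brains, 13.63, 13.80, 13.68 and 13.64 in the PR brains and 13.55, 13.67, 13.34 and 13.59 in the FA brains at its leading probe, base 7531. The CD mice differed by little from each other, and all PR and FA values lay below them. Grm5 differed by -0.38 ± 0.07 (SE, adjusted p = 0.00217) in PR and -0.54 ± 0.07 (SE, adjusted p = 0.000263) in FA, or 1.31-fold and 1.45-fold lower. Both calls were kept under each of the alternatives tried. Its probe near the 5′ end, base 81, differed by -0.22 ± 0.07 (SE, adjusted p = 0.0445) and -0.34 ± 0.07 (SE, adjusted p = 0.00592), and that at base 4285 by -0.14 ± 0.13 (SE, adjusted p = 0.446) and -0.29 ± 0.13 (SE, adjusted p = 0.121). The PR call at base 81 was lost without CD replicate 1, 3 or 4 or PR replicate 1, 2, 3 or 4 (adjusted p from 0.0511 to 0.116) and under 75th percentile scaling, the fit of only the groups compared and the Tukey test.

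Grm4, the receptor mGluR4 of cerebellar granule cell terminals, read 9.30, 9.55, 9.67 and 9.67 in the CD brains, 9.95, 9.84, 9.88 and 10.23 in the PR brains and 9.78, 9.79, 9.62 and 10.10 in the FA brains at its leading probe, base 2472. The PR values lay above all CD values, while FA and CD overlapped. It differed by 0.43 ± 0.12 (SE, adjusted p = 0.0262) in PR and 0.28 ± 0.12 (SE, adjusted p = 0.112) in FA. The other Grm4 probe, 427 bases downstream, differed by -0.02 ± 0.07 (SE, adjusted p = 0.872) and -0.03 ± 0.07 (SE, adjusted p = 0.784). The PR call of Grm4 was lost without CD replicate 1 or 2 or PR replicate 4 (adjusted p from 0.0527 to 0.0699) and under the Tukey test. Grm3, which glia also express, was lower by 0.19 in PR and 0.18 in FA (adjusted p = 0.0241 and 0.0295), and the PR call was lost without CD replicate 1 or 3 or PR replicate 1, 3 or 4 (adjusted p from 0.0612 to 0.0631) and under the normexp background correction and the fit of only the groups compared. Its FA call was lost without CD replicate 1 or 3 or FA replicate 1 or 3 (adjusted p from 0.0662 to 0.0791) and under the normexp background correction and the Tukey test. Grm8 differed by 0.15 ± 0.04 (SE, adjusted p = 0.00816) in FA and had the smallest spread within groups of the members (residual SD 0.034). Grm2, Grm7 and the delta receptor Grid1, an organizer of synapses with cerebellin ligands, were not called.

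Of the guanylate kinases that anchor the receptors, Dlg4 (PSD-95) alone had a called probe, lower in both groups, and the 5 probes of Dlg1, Dlg2 and Dlg3 lay between -0.25 and 0.14. Dlg4 read 12.82, 12.85, 12.75 and 12.80 in the CD brains, 12.65, 12.65, 12.48 and 12.54 in the PR brains and 12.37, 12.66, 12.29 and 12.43 in the FA brains. All PR and FA values lay below all CD values. The difference was -0.22 ± 0.08 (SE, adjusted p = 0.0499) in PR and -0.37 ± 0.08 (SE, adjusted p = 0.00418) in FA. The PR value sat at the limit, and its call was lost without any 1 of the 8 arrays (adjusted p from 0.0555 to 0.123) and under qspline values computed from the scanner signals, quantile normalization, the normexp background correction and the Tukey test. No difference between Dlg4 and the other Dlg genes was tested.

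The Shank scaffolds, which cap the PSD-95 complex and bind Homer, had 5 of 7 probes lower in PR and 5 of 7 in FA, with 0 higher, and a median difference of -0.366 and -0.338. Shank2 at its leading probe, base 7994, read 8.95, 9.07, 8.98 and 8.81 in the CD brains, 8.49, 8.64, 8.47 and 8.61 in the PR brains and 8.17, 8.74, 8.22 and 8.49 in the FA brains. The PR and FA values lay below all CD values. It differed by -0.40 ± 0.12 (SE, adjusted p = 0.027) in PR and -0.55 ± 0.12 (SE, adjusted p = 0.00499) in FA, and its other probe by -0.42 ± 0.13 (SE, adjusted p = 0.0287) and -0.49 ± 0.13 (SE, adjusted p = 0.013). The PR call at base 7994 was lost without CD replicate 1, 2 or 3 or PR replicate 1 or 3 (adjusted p from 0.0541 to 0.0695) and under the normexp background correction and the Tukey test. That at base 4759 was lost without CD replicate 1, 2 or 3 or PR replicate 1, 3 or 4 (adjusted p from 0.0509 to 0.0798) and under 75th percentile scaling, the normexp background correction and the Tukey test. Shank1 fell at bases 6006 and 6541, by 0.40 and 0.30 in PR and 0.33 and 0.36 in FA. Its leading probe, base 7533, was not called (-0.08 ± 0.09 SE, adjusted p = 0.528 in PR and -0.17 ± 0.09 SE, adjusted p = 0.164 in FA). The PR call at base 6541 was lost without CD replicate 2 or 3 or PR replicate 2, 3 or 4 (adjusted p from 0.0521 to 0.0712) and under 75th percentile scaling and the Tukey test.

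The probes of Shank3, whose loss causes Phelan-McDermid syndrome in humans, pointed in opposite directions. At base 5106 the values were 6.38, 6.68, 6.71 and 6.80 in the CD brains, 6.25, 6.51, 6.12 and 6.23 in the PR brains and 6.17, 6.37, 6.22 and 6.46 in the FA brains. At the leading probe, base 6887, they were 11.84, 11.84, 11.82 and 11.71 on the CD arrays, 12.31, 11.89, 11.90 and 12.05 on the PR arrays and 12.03, 11.91, 11.98 and 12.08 on the FA arrays. At base 5106 most PR and FA mice were below the CD mice but the groups overlapped, and at base 6887 all PR and FA values were above all CD values. The differences were -0.37 ± 0.11 (SE, adjusted p = 0.0326) in PR and -0.34 ± 0.11 (SE, adjusted p = 0.0401) in FA at base 5106, and 0.23 ± 0.09 (SE, adjusted p = 0.0672) and 0.20 ± 0.09 (SE, adjusted p = 0.108) at base 6887. The PR call at base 5106 was lost without CD replicate 2, 3 or 4 or PR replicate 1, 3 or 4 (adjusted p from 0.0696 to 0.0856) and under 75th percentile scaling, the normexp background correction, the fit of only the groups compared and the Tukey test. The FA call there was lost without CD replicate 2, 3 or 4 or FA replicate 1, 2 or 3 (adjusted p from 0.0557 to 0.103) and under the normexp background correction, the fit of only the groups compared and the Tukey test.

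**Figure D3:**
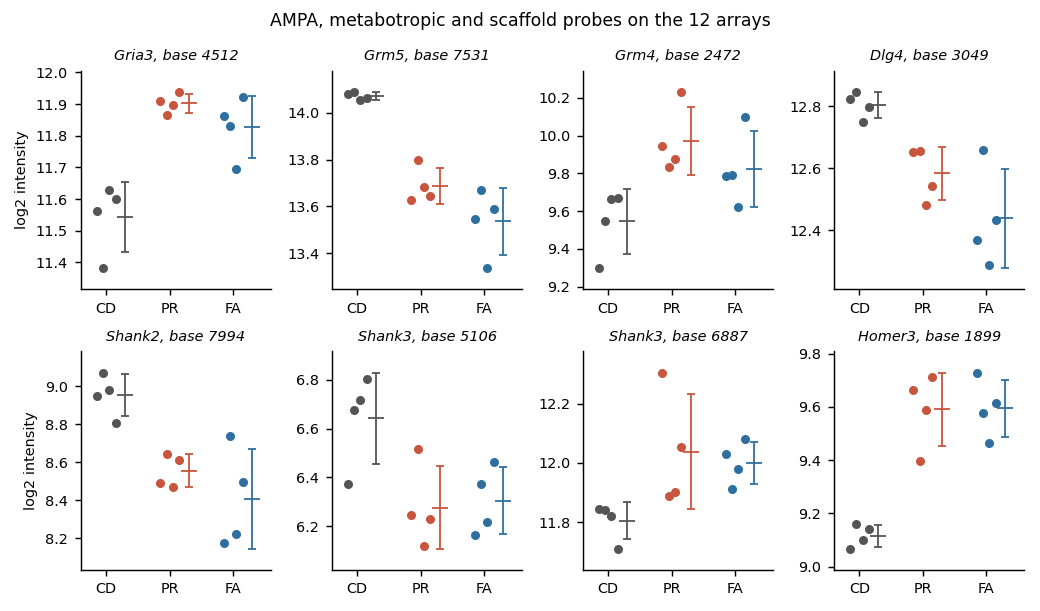
Log2 intensity (vertical axis) of 8 probes of AMPA and metabotropic receptors and scaffolds in the 4 CD, 4 PR and 4 FA brains. Points are single mice, and the bar beside them is the mean ± SD. Grm5, Dlg4 and Shank2 are lower in PR and FA than in CD, Gria3 and Homer3 are higher, and the Shank3 probes at bases 5106 and 6887 run in opposite directions.

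Homer proteins join metabotropic receptors, Shank and intracellular calcium channels. The gene Homer1 yields long forms, whose coiled coil lets them cross-link, and a short form, Homer1a, which ends early, lacks the coiled coil and is induced by neuronal activity. Probes for both were on the array, and they are shown because they separate the forms. The probes at bases 1036 and 1219 are annotated to transcript variant S (short) and to further Ensembl transcripts, that at base 1304 to variant S with 1 Ensembl transcript. Those at bases 1394 and 4534 are annotated to variant L (long). The short-form probe lies at chr13:94126009-94126068 of mm9 on the plus strand and ends with the stop codon of the short form, marked by capitals. The probe at base 1219 lies in the same stretch, at chr13:94125924-94125983, that at base 1036 at chr13:94116595-94116654, and that at base 1394 at chr13:94157507-94157566.
Homer1, base 1036: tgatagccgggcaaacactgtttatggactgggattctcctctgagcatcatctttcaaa
Homer1, base 1219: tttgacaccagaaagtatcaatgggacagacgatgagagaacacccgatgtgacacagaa
Homer1, base 1304: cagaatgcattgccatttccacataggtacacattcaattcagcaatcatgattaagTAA
Homer1, base 1394: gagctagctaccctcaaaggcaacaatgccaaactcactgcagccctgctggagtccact

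The short-form probe read 8.84, 8.92, 8.58 and 8.50 in the CD brains, 8.54, 8.32, 7.94 and 8.11 in the PR brains and 8.01, 8.47, 7.996 and 8.24 in the FA brains. The FA values lay below all CD values, and PR and CD overlapped in 1 PR mouse. It fell by 0.48 ± 0.15 in PR (SE, adjusted p = 0.0373) and by 0.53 ± 0.15 in FA (adjusted p = 0.0218). At the leading probe of the gene, base 4534 of the long form, the values were 11.80, 11.98, 12.01 and 12.06 on the CD arrays, 11.93, 12.11, 11.99 and 11.996 on the PR arrays and 12.06, 12.23, 11.88 and 12.15 on the FA arrays. These overlapped in all groups, with differences of 0.04 ± 0.08 (SE, adjusted p = 0.738) and 0.12 ± 0.08 (SE, adjusted p = 0.305). The other long-form probe differed by 0.03 ± 0.08 (SE, adjusted p = 0.785) and -0.08 ± 0.08 (SE, adjusted p = 0.471). The probes at bases 1036 and 1219 lay between -0.16 and 0.07 and were not called. The PR call of the short-form probe was lost without CD replicate 1 or 2 or PR replicate 2, 3 or 4 (adjusted p from 0.0517 to 0.0961) and under 75th percentile scaling, the fit of only the groups compared and the Tukey test. Its FA call was lost without CD replicate 1 or 2 or FA replicate 1 or 3 (adjusted p from 0.0565 to 0.0608) and under the Tukey test.

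To set the short form against the rest of the gene, a comparison added after the probe values were seen, the mean of the other 4 Homer1 probes was subtracted from the short-form probe on each array. The result was -2.09, -2.14, -2.33 and -2.46 on the CD arrays, -2.51, -2.75, -2.95 and -2.82 on the PR arrays and -2.88, -2.55, -2.73 and -2.82 on the FA arrays. All PR and FA values were below all CD values. The difference was -0.50 for PR minus CD and -0.49 for FA minus CD (two-sided exact permutation test, p = 0.0286 in both, the smallest that 4 against 4 arrays allow, 0.0429 after adjustment over 3 comparisons). The adjustment does not cover the choice of this gene and probe from the same values. The test therefore adds no independent evidence to the call of the short-form probe. In a limma fit over 3552 probe pairs of all genes that lie on 1 transcript the probe at base 1036 minus the short-form probe differed by 0.56 ± 0.08 (SE, adjusted p = 0.000417) in PR and 0.49 ± 0.08 (SE, adjusted p = 0.000594) in FA. These probes lie 268 bases apart. Of all pairs under 1500 bases apart, 25.8% were called in this direction in PR and 26.3% in FA, against 8.47% and 11.0% in the other direction.

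**Figure D4:**
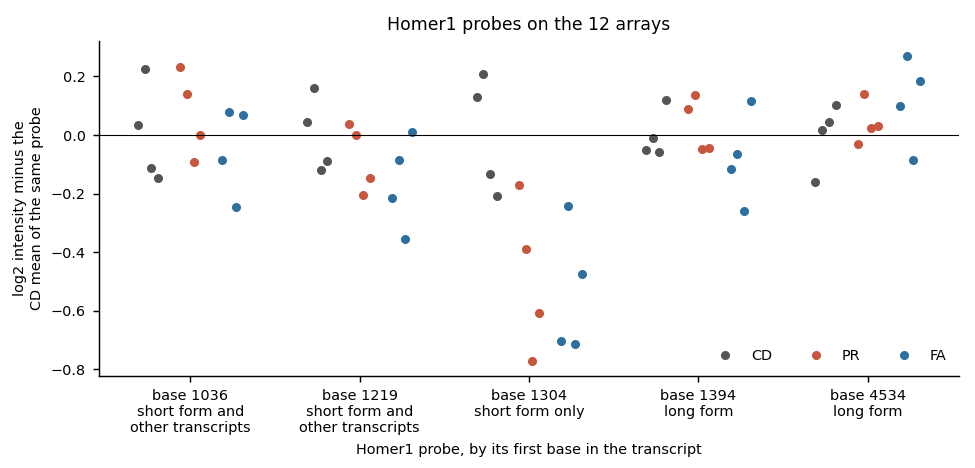
Log2 intensity of the 5 Homer1 probes on each of the 12 arrays, minus the CD mean of the same probe (vertical axis), ordered by the first base of the probe in its transcript (horizontal axis). Each point is 1 mouse. All FA points and all PR points but 1 fall below the CD points at the short-form probe, base 1304, and they intermingle with them at the other probes.

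Homer3, the family member found in cerebellar Purkinje cells, had the largest rise of the set, with 9.07, 9.16, 9.10 and 9.14 in the CD brains, 9.66, 9.40, 9.59 and 9.71 in the PR brains and 9.73, 9.58, 9.47 and 9.61 in the FA brains. All PR and FA values exceeded all CD values. It differed by 0.47 ± 0.07 (SE, adjusted p = 0.00104) in PR and 0.48 ± 0.07 (SE, adjusted p = 0.000814) in FA, a 1.39-fold higher level in both, and both calls were kept under each of the alternatives tried. Homer2 rose at its probe at base 9143, by 0.31 ± 0.08 in PR (SE, adjusted p = 0.0136), and differed there by 0.21 ± 0.08 (SE, adjusted p = 0.0666) in FA. Its leading probe, base 971, differed by 0.17 ± 0.06 (SE, adjusted p = 0.0562) in PR and by -0.0048 ± 0.06 (SE, adjusted p = 0.961) in FA.

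CaMKII, the most abundant kinase of the postsynaptic density, is formed by the alpha subunit (Camk2a) of forebrain excitatory neurons and the beta subunit (Camk2b). Camk2a at its leading probe, base 4200, read 13.46, 13.45, 13.21 and 13.02 in the CD brains, 12.93, 13.002, 12.73 and 12.73 in the PR brains and 12.65, 13.10, 12.70 and 13.001 in the FA brains. The PR values lay below all CD values, and FA and CD overlapped. It fell by 0.44 ± 0.13 in PR (SE, adjusted p = 0.0295) and by 0.42 ± 0.13 in FA (adjusted p = 0.0303). Its other probe differed by -0.27 ± 0.17 (SE, adjusted p = 0.253) and -0.40 ± 0.17 (SE, adjusted p = 0.0925). The PR call was lost without CD replicate 1 or 2 or PR replicate 3 or 4 (adjusted p from 0.0746 to 0.0776) and under the Tukey test. The FA call of Camk2a was lost without CD replicate 1 or 2 or FA replicate 1 or 3 (adjusted p from 0.0792 to 0.0824) and under the fit of only the groups compared and the Tukey test. Camk2b fell in FA at base 1455, by 0.46 (adjusted p = 0.0224, lost without FA replicate 1 or 3 with adjusted p from 0.0515 to 0.0621 and under the Tukey test). Its leading probe, base 3845, differed by 0.06 ± 0.08 (SE, adjusted p = 0.561) and 0.08 ± 0.08 (SE, adjusted p = 0.449).

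Several members gave different answers at different probes. Of the 19 genes with more than 1 probe, 12 had both called and uncalled probes in PR and 12 in FA. The matching share of all genes with more than 1 probe was not computed, so these counts do not set the members apart. Of 13 members, 14 pairs of bright probes (well above background on each of the 12 arrays) were formed from the outermost such probes of a transcript. The log2 value of the upstream probe minus that of the downstream probe was compared between diets in a limma fit over 3552 such pairs of all genes. This comparison was added after the values were seen. The upstream probe fell relative to the downstream probe for Shank3, by 0.60 ± 0.15 (SE, adjusted p = 0.00813) in PR and 0.53 ± 0.15 (SE, adjusted p = 0.0128) in FA, and for Grin2b, by 0.35 ± 0.10 (SE, adjusted p = 0.0206) and 0.39 ± 0.10 (SE, adjusted p = 0.0106). Shank1 passed in PR (-0.32 ± 0.09 SE, adjusted p = 0.0115) and Camk2b in FA (-0.54 ± 0.11 SE, adjusted p = 0.00312), as did Homer2 and the long-form probes of Homer1. The opposite direction was found for Grm4, by 0.44 ± 0.10 (SE, adjusted p = 0.00516) and 0.30 ± 0.10 (SE, adjusted p = 0.0285), and for the short-form pair of Homer1.

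In PR, 3 of the 14 pairs were called with the upstream probe lower and 2 with it higher, where 14.1% of all pairs were called lower and 23.1% higher. In FA the counts were 5 and 2, where 18.6% of all pairs were called lower and 22.4% higher. Over the whole array the direction went with the distance between the probes. For pairs at least 1500 bases apart, the median of the 11 member pairs was -0.293 in PR and -0.211 in FA, and that of all 1214 pairs -0.063 and -0.121. At that distance, 303 of the 1214 pairs were called lower in PR and 403 in FA, against 3 and 5 of the 11 member pairs. For the 2338 closer pairs the medians were 0.079 and 0.075, and 25.8% and 26.3% were called with the upstream probe higher. Camk2a and Grm5 were exceptions among the distant pairs, with upstream minus downstream differences of 0.16 ± 0.09 (SE, adjusted p = 0.194) and 0.24 ± 0.11 (SE, adjusted p = 0.116) in PR. The part of probe position in the member differences was not tested.

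**Figure D5:**
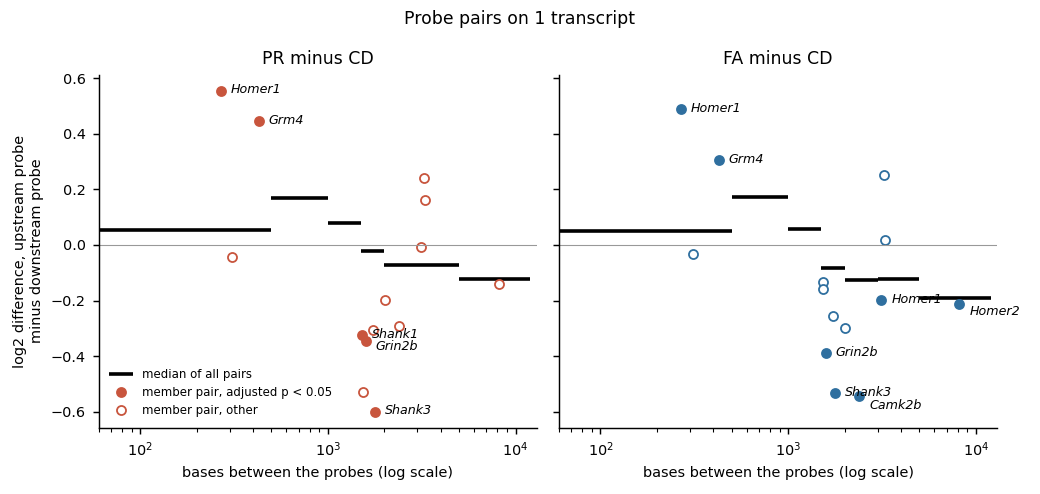
Difference from CD of the log2 value of the upstream probe minus the downstream probe on 1 transcript (vertical axis) against the bases between the probes (horizontal axis, log scale), for PR on the left and FA on the right. Circles are the 14 member pairs, filled and named where the adjusted p was under 0.05, and black bars are medians of all 3552 pairs of the array within distance classes. The bars lie above 0 for close pairs and below 0 for distant ones, and most distant member pairs lie below 0 as well.

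Of 52 further genes of the glutamate synapse, among them auxiliary subunits, adhesion molecules, transporters and signaling enzymes, 51 were on the array with 83 probes. In PR, 13 of the 83 probes were lower and 16 higher (15.7% and 19.3%, against 16.6% and 13.4% of all probes). In FA, 18 were lower and 9 higher (21.7% and 10.8%, against 18.0% and 16.4% of all probes). The medians were -0.007 and -0.049, closer to those of all probes than the medians of the members were. Among called probes, the largest falls in both groups were those of Kalrn, Neto1 and Slc1a2. Kalrn, the exchange factor kalirin of dendritic spines, differed by -0.60 in PR and -0.73 in FA. Neto1, an auxiliary kainate receptor subunit, differed by -0.51 and -0.65, and Slc1a2, the astrocytic glutamate transporter, by -0.47 and -0.63. These were not the leading probes of their genes, which were not called. The leading probes differed by -0.14 in PR and -0.14 in FA for Kalrn. The differences were 0.10 and 0.07 for Neto1, and 0.08 and -0.01 for Slc1a2. The largest called rises in PR were those of Grip2, Neto2 and Dlgap1. Grip2, an AMPA receptor binding protein, rose by 0.95 (adjusted p = 0.0135). Neto2, an auxiliary kainate receptor subunit like Neto1, rose by 0.43 (adjusted p = 0.000638). Dlgap1, a partner of PSD-95, rose by 0.40 (adjusted p = 0.00539) at base 5627. The leading probe of Dlgap1, base 3758, differed by -0.04 (adjusted p = 0.688) in PR and -0.14 (adjusted p = 0.153) in FA. The Dlgap1 probe at base 3591 differed by 0.11 (adjusted p = 0.122) in PR and 0.19 (adjusted p = 0.0122) in FA. In FA, the largest called rises were those of Grip2 (0.78, adjusted p = 0.0281), Cacng3, an AMPA receptor auxiliary subunit (0.60, adjusted p = 0.00179), and Neto2 (0.50, adjusted p = 0.000213). The PR call of Slc1a2 was lost without CD replicate 1 or 2 or PR replicate 1, 2, 3 or 4 (adjusted p from 0.0517 to 0.102) and under the Tukey test. The FA call of Grip2 was lost without CD replicate 1, 2, 3 or 4 or FA replicate 1 or 3 (adjusted p from 0.0503 to 0.0724) and under the normexp background correction and the Tukey test, and its PR call under the Tukey test.

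Genes of neuronal activity and of brain cell types were read on the same arrays. Their counts stand beside 16.6% of all probes called lower and 13.4% higher in PR, and 18.0% and 16.4% in FA. Of 12 immediate early genes, to which Homer1a belongs by its regulation, 6 were lower in PR (Egr2, Fos, Btg2, Dusp1, Nr4a1 and Fosb, from -0.72 to -0.45), 3 in FA (Egr2, Fosb and Nr4a1, from -0.84 to -0.40), and 0 were higher. Their mean log2 level was 11.51 to 11.54 on the CD arrays, 10.81 to 11.32 on the PR arrays and 10.80 to 11.57 on the FA arrays. All 6 PR calls were lost under the Tukey test. Leaving out 1 array lost the PR call of Dusp1 in 7 of 8 cases and those of Egr2, Fos and Btg2 in 6 each. It lost that of Nr4a1 in 4 cases and that of Fosb in 1. In FA, that of Nr4a1 was lost without CD replicate 1, 2, 3 or 4 or FA replicate 1, 3 or 4 (adjusted p from 0.0554 to 0.12) and under the normexp background correction and the Tukey test, and that of Egr2 under the Tukey test. Their part in the fall of the Homer1 short form was not tested.

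Of 8 pan-neuronal markers 6 were on the array, all well above background on all arrays, and 1 was lower in PR (Snap25, -0.15), 2 were higher in both PR and FA (Nefl and Nefm, 0.19 and 0.41 in PR). Their mean level was 15.25 to 15.38 in CD, 15.39 to 15.43 in PR and 15.38 to 15.45 in FA. Leaving out 1 array lost the PR call of Snap25 in 5 of 8 cases. It lost the Nefl call in 5 of 8 cases in PR and 6 of 8 in FA, and the Nefm calls in 0. Of 7 probes for 6 markers of forebrain excitatory neurons, 1 was lower in both PR and FA (Tbr1, -0.81 and -0.70), and 2 were higher in PR (Neurod6 and Nrgn) and 2 in FA (Neurod6 and Emx1). The median difference of these probes was 0.022 and 0.236, and their mean level was 12.05 to 12.17 in CD, 12.07 to 12.34 in PR and 12.16 to 12.40 in FA, beside the lower values of Grin2a, Grin2b, Grm5 and Camk2a. Leaving out 1 array lost the PR call of Neurod6 in 7 of 8 cases and that of Nrgn in 1. It lost the FA call of Emx1 in 4 of 8 cases, and those of Neurod6 and Tbr1 in 0. Markers of cerebellar granule cells were read beside the rises of Grin2c, Homer3 and Grm4. Of 11 probes, 1 was lower and 2 higher in PR, and 4 were lower and 1 higher in FA. In PR, Neurod1 was lower at base 1611 and higher at base 923, and Cbln3 was higher by 0.42. In FA, Fat2 (-0.61), Neurod1 at base 1611 and Zic1 at bases 1864 and 3048 were lower, and Cbln3 was higher by 0.47. Leaving out 1 array lost each PR call of Neurod1 in 5 of 8 cases. It lost the FA call of Zic1 at base 1864 in 5 of 8 cases. The mean levels of these markers were 11.64 to 11.67 in CD, 11.60 to 11.75 in PR and 11.37 to 11.67 in FA. Gabra6, the receptor subunit specific to granule cells, differed by 0.16 ± 0.07 (SE, adjusted p = 0.107) in PR and 0.05 ± 0.07 (SE, adjusted p = 0.651) in FA. Of 8 Purkinje cell probes, 2 were lower in PR and 3 in FA and 0 were higher, with mean levels of 13.76 to 13.82, 13.63 to 13.72 and 13.43 to 13.67. The part of regional composition in the member differences was not tested.

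Among other cells, astrocyte markers gave 1 lower and 3 higher of 9 probes in PR, and oligodendrocyte markers 1 and 4 of 10, microglia markers 3 and 2 of 11 and endothelial markers 0 and 2 of 5. In FA, these were 2 and 2, 1 and 2, 2 and 2, and 1 and 2, in the same order. Choroid plexus and blood markers had 0 called probes by limma in both comparisons (7 and 5 probes). In FA, 2 of the choroid plexus probes had an unadjusted limma p under 0.05, as did 17502 of all 39429 probes. Pituitary markers, which can enter a dissected brain, had 2 of 8 probes lower in both PR and FA (Gh and Prl, each well above background on 4 CD, 0 PR and 1 FA arrays). They had a mean level of 8.23 to 8.52 in CD, 6.43 to 6.84 in PR and 5.76 to 7.90 in FA. Of the 7 genes, 3 were well above background on all arrays. Of 5 retina markers, 1 gene was well above background on all arrays and 2 were so on 0 arrays, and 1 probe was lower in both PR and FA. Their part in the member differences was not tested.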

How the data were processed

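RNA of 12 whole brains, 4 each of CD, PR and FA progeny, was labeled with Cy3 and hybridized to 1-color Agilent 4x44K mouse arrays, 1 mouse per array. Per the file headers and the submitters' processing notes, scanner signals came from Agilent Feature Extraction 11.0.1.1, and probe positions refer to mm9. The authors normalized the signals by qspline, and the deposited intensity table is on a linear scale. Here log2 of that table was taken, since the rule for the members names it. It was matched to the scanner signals by recomputing qspline (median absolute log2 difference 0.00433, largest over member probes 0.0178). Replicates are separate mice, and their number limits the precision. The diet was given to the recipient mothers, and the labels do not name the mother of a mouse. Mice of a group may thus be littermates, and the SE and p-values may not cover the spread between mothers.

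Control spots were left out, replicate spots of a probe were averaged, and limma 3.58.1 in R 4.3.3 was fitted to all 39429 probes over the 3 groups (lmFit and eBayes, two-sided, Benjamini-Hochberg). Fold changes are the antilogs of differences between group means of log2 values, that is ratios of geometric means. The members and all lists were chosen with earlier results of these data known. All members were named. The leading probe of a gene was that above background on most arrays, then the brightest. Values of every mouse are given for members whose leading probe was called and among the 10 largest differences of a comparison, for any called between FA and PR, for 10 members of general interest, and, chosen after their values were seen, for further probes of these genes and Shank3. Of the other synapse genes, the 3 largest calls in each direction were named. Alternatives were qspline from scanner signals, 75th percentile scaling, quantile normalization, normexp (offset 50), removal of probes that were dim in every group (27489 kept), a replicate block, fits of only the groups compared, a variance model with trend, the Tukey test of the methods, and leaving out each array. The scripts were tested on simulated data. Figures were drawn with matplotlib 3.10.9. Probe sequences were taken from the scanner files. The methylation arrays of the series were not analysed here. Of the markers of forebrain excitatory neurons, 1 is not reported here, and the values of the other 6 were computed after seeing the data.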

Additional observations from a re-analysis of the deposited data

Results flagged for a closer look

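In 9 of 108 sets of 4 mice, 1 mouse lay apart from the others by Dixon's criterion, which chance meets in about 1 in 20 sets. For Grin3a, at its leading probe, PR replicate 1 read 11.064 on the log2 scale against 11.044 to 11.047 in the other PR mice, and FA replicate 2 read 10.777 against 10.959 to 10.97 in the other FA mice. Grid1 was 8.722 in PR replicate 1 against 8.365 to 8.416, and Grm3 was 10.873 in PR replicate 2 against 10.678 to 10.698. Grm6 in FA replicate 2 (3.079 against 2.573 to 2.611) was not well above background. Grm7 was 11.287 in CD replicate 4 against 11.472 to 11.508, and Shank3 at its leading probe was 11.71 in CD replicate 4 against 11.822 to 11.844. Dlg2 read 12.274 in CD replicate 2 against 12.366 to 12.381, and Camk2b read 15.945 in PR replicate 2 against 16.036 to 16.053.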

How the results depend on the processing

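Of 52 called member differences, 0 turned direction under any alternative and 29 were called under every one of them. With each array left out in turn, 8 of 23 calls of PR minus CD, 22 of 28 of FA minus CD and 0 of 1 of FA minus PR were always called. The 18 lower and 5 higher probes in PR ranged from 6 to 16 and from 3 to 5, the 1 probe lower in FA than PR from 0 to 1, and the 29 called probes of other synapse genes in PR from 18 to 28. The Tukey test called 6 lower and 3 higher members in PR, 0 between FA and PR and 17 of the other synapse probes in PR, where 4882 of all 39429 probes were lower and 3472 higher in PR, and 2 and 6 between FA and PR. At 2-fold and a limma adjusted p under 0.0001, 0 members and 0 of the other synapse probes passed in all comparisons. The variance model with trend called 1 of the other synapse probes between FA and PR, where the main setting called 0 (limma). The cause of these shifts was not tested.

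Replicate numbers did not pair the mice (correlations of same-numbered deviations from -0.063 to 0.196). With the replicate block, 16 members were lower and 4 higher in PR, 22 and 5 in FA, and 0 lower between FA and PR, where 6051 and 4935 of all probes were called in PR, 6625 and 6085 in FA, and 6 and 5 between FA and PR. Calls absent under the block were those of Grin2c, Grin2a at base 2917, Grm5 at base 81 and Grm3 in PR, of Grin3b and Grm3 in FA, and of Grin3a between FA and PR. All slides hold 1 diet each, so no fit with slide as a term was possible. The 2 probes of 60 that were not above background on all arrays, Grm6 and 1 of Grik3, limit what can be said of these genes. Scaling moved the median of all probes by less than 0.1.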
